A study of Mus musculus with 9 samples.

Results

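The enzymes that make, salvage and degrade purine and pyrimidine nucleotides were followed in activated mouse CD8 T cells as a fixed list of 38 genes, chosen by name for their function. The list was drawn up with earlier results of these data known, so the shares below describe it and do not test it. All 38 were among the 16344 genes of the expression table, and all 38 passed the filter on low values, a mean of at least 10 normalized counts over the libraries. Bulk poly(A) RNA sequencing covered 9 libraries of 100000 wild-type CD8 T cells each, taken from mouse spleen and lymph nodes and stimulated through CD3 and CD28 with antibodies. The 3 groups of 3 libraries were DAHB+O (DAHB together with oligomycin at 10 nM), DAHB (20 mM) and NaCl (20 mM, the control), all given overnight. The labels do not spell out the name DAHB, leave its dose in the combined treatment unstated, and give neither the age nor the number of the mice. They do not say that replicates are different mice or cultures, and p-values therefore measure only how far these libraries spread, which may be technical. Oligomycin blocks the mitochondrial ATP synthase. No group received oligomycin alone.

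A purine ring is built stepwise on the activated ribose PRPP to give IMP, from which separate branches lead to adenine and guanine nucleotides, whereas a pyrimidine ring is built first and then joined to PRPP to give UMP. Bases and nucleosides can instead be recovered by salvage enzymes, and ribonucleotide reductase turns ribonucleotides into the deoxynucleotides used for DNA. Activated T cells divide rapidly and are known to raise nucleotide synthesis when they leave the resting state.

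The libraries held 28146402 to 39207045 reads assigned to genes, as recovered from the steps of the normalized counts. All carried 1 batch label. The 5 CD8 T cell markers (Cd8a, Cd8b1 and the CD3 chains) summed to 53393 to 57966 normalized counts in DAHB+O libraries, 79890 to 83209 in DAHB libraries and 64986 to 69712 in NaCl libraries, and all 5 were expressed in every library. The 5 monocyte and macrophage markers analysed summed to 244 to 311 normalized counts in DAHB+O libraries, 108 to 168 in DAHB libraries and 160 to 245 in NaCl libraries. The 5 dendritic cell markers analysed summed to 6873 to 7342, 4811 to 5342 and 2170 to 2280 in DAHB+O, DAHB and NaCl libraries, mostly from Cd74. The 5 B cell markers summed to 2000 to 2177, 2679 to 2884 and 7580 to 8108 in the same groups, mostly from Ighm.

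In DAHB libraries, 21 of the 38 nucleotide genes were lower and 10 were higher than in NaCl libraries by limma at an adjusted p under 0.05, and 7 did not pass. That is 81.6% of the members called, beside 73.9% of the 14169 genes tested, so the share called is near the background. The direction was less even among the members, of which 55.3% were lower and 26.3% higher, beside 38.4% and 35.5% of all genes tested. Their median log2 fold change was -0.24, beside -0.02 for all genes. The background depended on the expression level of the genes in it. Of 11647 genes with a mean of at least 50, which include 37 members, 5235 were lower and 3989 higher. The median log2 fold change of those genes was -0.08. The libraries of the groups did not overlap for 30 members, beside 75.6% of all genes, 20 of them lower and 10 higher, beside 39.2% and 36.4%. In bulk RNA, fewer cells of a kind and less RNA per cell cannot be told apart, and each value is relative to the other genes of its library.

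In DAHB+O libraries, 24 members were higher and 8 lower than in DAHB libraries, and 6 did not pass. The share called was 84.2%, beside 62.6% of all genes, with 63.2% higher beside 33.1% and 21.1% lower beside 29.5%. The median log2 fold change was 0.30 in the members and 0.02 in all genes. Groups did not overlap for 33 members, beside 67.6% of all genes, 25 of them higher, beside 35.6%, and 8 lower, beside 32.0%. This comparison uses the same 3 DAHB libraries as the comparison of DAHB with NaCl, so the 2 sets of changes are not independent.

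DAHB+O libraries set against NaCl libraries had 11 members higher and 14 lower, with 13 that did not pass. At 65.8% called, beside 74.2% of all genes, the members did not exceed the background, and neither did the shares higher (28.9%, beside 36.5%) or lower (36.8%, beside 37.7%). The median log2 fold change was 0.01 in the members and -0.01 in all genes. Groups did not overlap for 29 members, beside 78.7% of all genes, 13 of them higher, beside 38.6%, and 16 lower, beside 40.0%. Quantile normalization moved the split of calls to 18 higher and 11 lower.

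**Figure D1:**
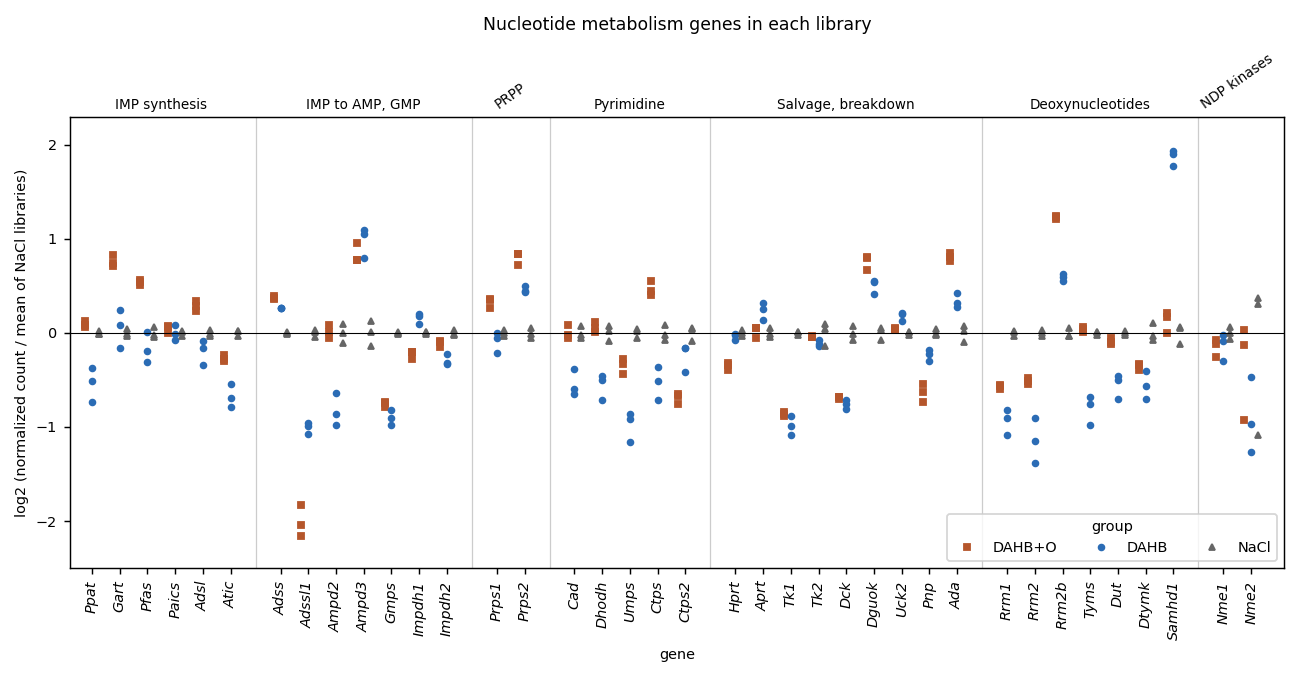
Each symbol is 1 library, plotted as the log2 of its normalized count over the mean of the 3 NaCl libraries (y axis) for each of the 38 genes (x axis), in blocks by role. Samhd1 in DAHB libraries lies highest and Adssl1 in DAHB+O libraries lowest, with fitted log2 fold changes against NaCl of 1.87 and -2.01.

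**Figure D2:**
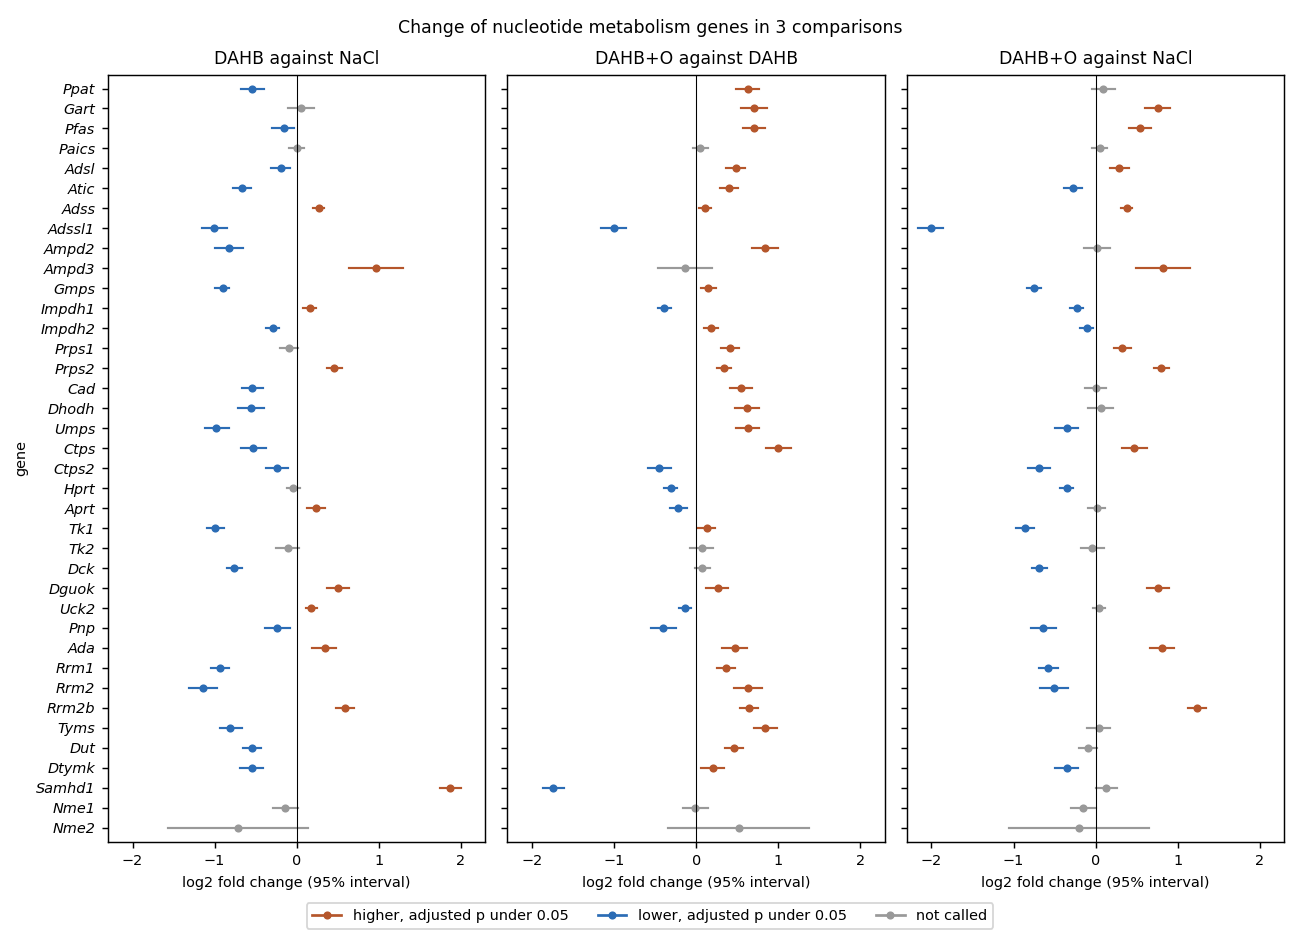
Points are limma log2 fold changes and bars their 95% intervals (x axis) for each gene (y axis) in the 3 comparisons. In the DAHB against NaCl panel 21 genes are called lower and 10 higher, and in the DAHB+O against DAHB panel 24 are called higher and 8 lower.

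Among the deoxynucleotide genes the largest difference was that of Samhd1 (ENSMUSG00000027639.16, chromosome 2, 157097533 to 157135265 on the minus strand, mm10 with GENCODE vM21 annotation), whose product cleaves deoxynucleoside triphosphates and so lowers their pool. Samhd1 had 22025, 24780 and 25561 normalized counts in DAHB+O libraries, 75335, 82276 and 84005 in DAHB libraries, and 20360, 22968 and 22780 in NaCl libraries. The 3 DAHB libraries stood far above the other 6, whose groups overlapped. The level was 3.66-fold higher in DAHB than in NaCl libraries (log2 fold change 1.87, SE 0.0611, limma adjusted p = 1.48e-12). It was 3.34-fold lower in DAHB+O than in DAHB libraries (log2 fold change -1.74, SE 0.0611, limma adjusted p = 9.21e-12). Between DAHB+O and NaCl libraries the log2 fold change was 0.13 with a 95% interval of -0.00 to 0.26, and the limma adjusted p of 0.0678 did not pass. That last call depended on the fit: the adjusted p was 0.0354 by edgeR, 0.0439 by DESeq2, 0.0101 without DAHB+O replicate 1, 0.0394 without DAHB replicate 1 and 0.00159 with the replicate number as a block, and fell between 0.00199 and 0.0407 under the other settings that changed it. SAMHD1 is also known to be abundant in myeloid cells, whose markers moved in both directions. Of 5 dendritic cell markers, 4 were higher and 1 (Xcr1) lower in DAHB than in NaCl libraries, and 1 (Cd74) was higher and 3 lower in DAHB+O than in DAHB libraries. Itgax and H2-Aa were, like Samhd1, highest in DAHB libraries: Itgax averaged 167 normalized counts in DAHB+O libraries, 296 in DAHB libraries and 108 in NaCl libraries, and H2-Aa averaged 893, 1067 and 529 in the same groups. Of 5 monocyte and macrophage markers, 2 were higher and 3 lower in DAHB than in NaCl libraries, and 2 were higher and 1 lower in DAHB+O than in DAHB libraries. Itgam, which averaged 39.6 in DAHB+O libraries, 65.9 in DAHB libraries and 40 in NaCl libraries, was highest with Samhd1, whereas Lyz2, at 182, 38.8 and 90.6 in the same groups, was lowest there. Of the neutrophil markers, 2 were analysed, and they summed to 3.78 to 8.93 normalized counts in DAHB+O libraries, 30.8 to 98 in DAHB libraries and 4.14 to 17.7 in NaCl libraries. The part of these cells in the Samhd1 values was not tested.

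The reductase that feeds the same pool moved the other way in its dividing-cell form. Rrm1, its large subunit, had 10541, 10243 and 10457 normalized counts in DAHB+O libraries, 8811, 8282 and 7319 in DAHB libraries, and 15721, 15206 and 15625 in NaCl libraries. Rrm2, the small subunit of dividing cells, had 5784, 5688 and 5538 in DAHB+O libraries, 4319, 3652 and 3102 in DAHB libraries, and 8258, 8066 and 7916 in NaCl libraries. For both genes the 3 groups were separate, with DAHB lowest, DAHB+O between and NaCl highest. Rrm2 was 2.21-fold lower in DAHB than in NaCl libraries (log2 fold change -1.14, SE 0.0799, limma adjusted p = 4.7e-09), and Rrm1 was 1.91-fold lower. In DAHB+O libraries Rrm2 was 1.55-fold and Rrm1 1.28-fold higher than in DAHB libraries, and both were lower than in NaCl libraries, by 1.42-fold and 1.49-fold.

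Rrm2b, the alternative small subunit known to be induced by p53 and to serve cells outside S phase, had a different order. It had 1242, 1268 and 1259 normalized counts in DAHB+O libraries, 782, 806 and 824 in DAHB libraries, and 523, 524 and 556 in NaCl libraries. No groups overlapped, and the level was 1.5-fold higher in DAHB than in NaCl libraries and 2.35-fold higher in DAHB+O than in NaCl libraries (log2 fold change 1.23, SE 0.0507, limma adjusted p = 1.36e-11). Per kilobase of annotated exon, Rrm2 exceeded Rrm2b 14.5- to 15.4-fold in DAHB+O libraries, 12.4- to 18.2-fold in DAHB libraries and 46.9- to 52-fold in NaCl libraries. The ranges of the treated groups overlapped, and neither reached that of the NaCl libraries.

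Tyms, thymidylate synthase, had 1578, 1557 and 1521 normalized counts in DAHB+O libraries, 941, 893 and 767 in DAHB libraries, and 1524, 1486 and 1528 in NaCl libraries. DAHB libraries were 1.75-fold lower than NaCl libraries (log2 fold change -0.81, SE 0.0625, limma adjusted p = 1.48e-08). DAHB+O libraries were 1.8-fold higher than DAHB libraries and overlapped the NaCl libraries (limma adjusted p = 0.608, and 0.0316 under quantile normalization). Dut, the enzyme that removes dUTP, had 5303, 5133 and 5075 normalized counts in DAHB+O libraries, 4003, 3895 and 3390 in DAHB libraries, and 5504, 5415 and 5600 in NaCl libraries. DAHB libraries were again the lowest, 1.47-fold below NaCl libraries, and DAHB+O libraries were 1.38-fold above DAHB libraries. Between DAHB+O and NaCl libraries Dut differed by a log2 fold change of -0.09 (limma adjusted p = 0.126, and 0.0189 without DAHB replicate 3). Dtymk, thymidylate kinase, had 1355, 1302 and 1344 normalized counts in DAHB+O libraries, 1286, 1156 and 1051 in DAHB libraries, and 1828, 1670 and 1616 in NaCl libraries. It was 1.47-fold lower in DAHB than in NaCl libraries and 1.15-fold higher in DAHB+O than in DAHB libraries, a call lost without DAHB replicate 3 (limma adjusted p = 0.0157, and 0.0766 without it).

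**Figure D3:**
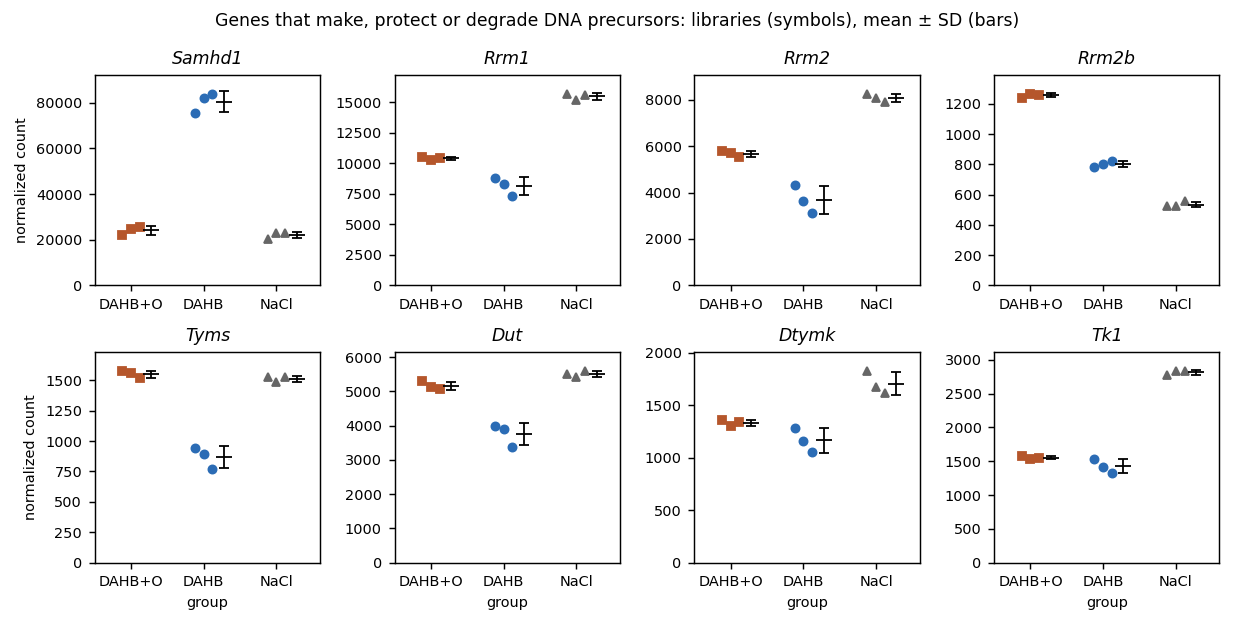
Normalized counts (y axis, from 0) of 8 genes that make, protect or degrade DNA precursors in the DAHB+O, DAHB and NaCl groups (x axis), with symbols for the 3 libraries of a group and bars for mean ± SD. Samhd1 averages 80539 in DAHB libraries and 22036 in NaCl libraries, while Rrm2 averages 3691 and 8080 in the same groups.

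All 5 deoxynucleotide genes that were lower in DAHB libraries (Rrm1, Rrm2, Tyms, Dut and Dtymk) belong to enzymes known to peak with DNA synthesis. A list of 21 DNA replication genes moved with them: 21 of 21 were lower in DAHB than in NaCl libraries, beside 38.4% of all genes, and 21 of 21 were higher in DAHB+O than in DAHB libraries, beside 33.1%. Against NaCl libraries, 14 were lower and 3 higher in DAHB+O libraries, or 66.7% and 14.3%, beside 37.7% and 36.5% of all genes. The list includes Mki67, a marker of dividing cells. The summed level of these replication genes was 116611 to 118753 normalized counts in DAHB+O libraries, 75570 to 85525 in DAHB libraries and 157705 to 169089 in NaCl libraries. Mcm5, a subunit of the replicative helicase, was 2.7-fold lower in DAHB than in NaCl libraries and 1.62-fold higher in DAHB+O than in DAHB libraries. How far a different share of cells in S phase set the nucleotide gene values was not tested.

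The promoters of Rrm2 and Tyms, a reductase subunit and a thymidylate enzyme that were both lower in DAHB libraries, are shown because replication-linked genes often carry E2F or E-box elements near their start. Sequences are from RefSeq on GRCm38.p6, which is the mm10 build, 5′ to 3′ on the strand of the gene. The Rrm2 stretch is chr12:24708004-24708240 on the plus strand, and the Tyms stretch is chr5:30073626-30073875 on the minus strand, with an E-box in capitals. None of the words searched below was found in the Rrm2 promoter, and no E2F-type word in that of Tyms.
Rrm2 promoter: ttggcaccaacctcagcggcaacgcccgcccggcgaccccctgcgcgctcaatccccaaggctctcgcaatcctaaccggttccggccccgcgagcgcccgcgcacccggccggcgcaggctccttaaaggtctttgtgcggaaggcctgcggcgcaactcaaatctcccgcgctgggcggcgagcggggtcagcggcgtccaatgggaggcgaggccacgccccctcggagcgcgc
Tyms promoter: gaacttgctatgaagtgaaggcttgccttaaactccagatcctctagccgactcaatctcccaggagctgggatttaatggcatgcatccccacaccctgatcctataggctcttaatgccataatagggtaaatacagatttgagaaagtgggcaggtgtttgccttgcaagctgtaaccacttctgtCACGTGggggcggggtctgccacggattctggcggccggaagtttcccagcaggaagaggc

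RefSeq promoters, from 250 bases before to 50 bases after the start, were matched for 35 of the 38 members. The E-box CACGTG, the core bound by MYC and related factors, was found in 7 members (20%), beside 8.09% of 27025 genes with a promoter. These 7 were Ampd3, Atic, Dtymk, Impdh2, Nme1, Paics and Tyms. In DAHB against NaCl libraries 4 of them were lower (Atic, Dtymk, Impdh2 and Tyms), beside 38.4% of all genes and 55.3% of the 38 members. Of the rest, 1 was higher (Ampd3), beside 35.5% and 26.3%, and 2 did not pass (Nme1 and Paics). Whether the word goes with a direction was not tested. The E2F-type words TTTGGCGC, TTTCCCGC, TTTGGCGG and TTTCCCGG were searched on both strands and found in Ada, Ppat and Prps2 (8.57%, beside 3.79% of genes). The ATF4-type word TGATGNAA was found in Prps1 alone (2.86%, beside 4.51%), and the NRF1-type palindrome in Ctps alone (2.86%, beside 1.07%). A match is a description of letters in this window and not a measured binding site. Only exact words were searched, so the lack of a match does not show the lack of a site. The windows of 30 bases around the E-box (in capitals) in 5 of the members with a match are shown so that their flanks can be compared. They lie at chr1:71557137-71557166 on the plus strand (Atic), chr9:108560314-108560343 on the plus strand (Impdh2), chr5:76951087-76951116 on the plus strand (Paics), chr1:93802065-93802094 on the minus strand (Dtymk) and chr7:110772514-110772543 on the plus strand (Ampd3).
Atic: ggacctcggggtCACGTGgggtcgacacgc
Impdh2: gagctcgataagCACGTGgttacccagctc
Paics: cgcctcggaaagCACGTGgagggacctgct
Dtymk: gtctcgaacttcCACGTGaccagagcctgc
Ampd3: ccagcagtgggtCACGTGtcagctctgtaa

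Of the 6 enzymes that build IMP, 4 were lower in DAHB than in NaCl libraries and none was higher, and 5 were higher in DAHB+O than in DAHB libraries. The share lower in the first comparison was 66.7%, beside 38.4% of all genes, and the share higher in the second was 83.3%, beside 33.1%. The shares called in either direction were also 66.7% and 83.3%, beside 73.9% and 62.6% of all genes. Of the 4 lower in DAHB libraries, Pfas and Adsl lost the call under quantile normalization (limma adjusted p = 0.95 and 0.562). Ppat, the first committed enzyme of the route, had 4368, 4294 and 4490 normalized counts in DAHB+O libraries, 3178, 2873 and 2471 in DAHB libraries, and 4161, 4082 and 4087 in NaCl libraries. DAHB libraries were the lowest, 1.45-fold below NaCl libraries (log2 fold change -0.54, SE 0.0652, limma adjusted p = 2.19e-06), and DAHB+O libraries were 1.55-fold above DAHB libraries. DAHB+O libraries all lay above the NaCl libraries by a small margin, and the limma adjusted p of 0.21 did not pass (0.0435 without DAHB replicate 3). Atic, which carries out the last steps to IMP, had 5661, 5423 and 5507 normalized counts in DAHB+O libraries, 4580, 4130 and 3870 in DAHB libraries, and 6504, 6752 and 6743 in NaCl libraries. Its groups did not overlap, and DAHB libraries were 1.59-fold and DAHB+O libraries 1.21-fold lower than NaCl libraries. The call for DAHB+O was lost under quantile normalization (log2 fold change -0.27, and -0.07 there, limma adjusted p = 0.211).

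Gart, a multifunctional enzyme of the middle of the route, had another order of groups. It had 7944, 7491 and 7329 normalized counts in DAHB+O libraries, 5300, 4748 and 4000 in DAHB libraries, and 4607, 4388 and 4446 in NaCl libraries. The NaCl libraries lay within the wide DAHB range, and the log2 fold change of 0.05 did not pass (limma adjusted p = 0.513). It was 0.16 and passed without DAHB replicate 3 (limma adjusted p = 0.00823), and was -0.04 without DAHB replicate 1. In DAHB+O libraries Gart was 1.69-fold higher than in NaCl libraries (log2 fold change 0.76, SE 0.0727, limma adjusted p = 1.63e-07). Of its annotated exon bases, 19.7% are shared with Gm15964 on the opposite strand. The strand setting of the counting is not given, so the Gart values are uncertain. Pfas, which acts beside Gart, had 4663, 4588 and 4498 normalized counts in DAHB+O libraries, 3179, 2751 and 2542 in DAHB libraries, and 3295, 3092 and 3067 in NaCl libraries. DAHB+O libraries were 1.63-fold above DAHB and 1.45-fold above NaCl libraries. DAHB and NaCl libraries overlapped, and the 1.12-fold lower level in DAHB libraries (limma adjusted p = 0.0279) was lost without DAHB replicate 2 (0.0839), DAHB replicate 3 (0.148) or NaCl replicate 1 (0.106), and by edgeR (0.0743). Adsl, adenylosuccinate lyase, had 4307, 4146 and 3986 normalized counts in DAHB+O libraries, 3196, 3043 and 2683 in DAHB libraries, and 3477, 3377 and 3322 in NaCl libraries. It was 1.14-fold lower in DAHB (log2 fold change -0.19, and -0.035 under quantile normalization) and 1.22-fold higher in DAHB+O than in NaCl libraries, with no overlap of the groups.

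Paics, which joins carbon dioxide and aspartate to the growing ring, had 13702, 14279 and 14429 normalized counts in DAHB+O libraries, 13562, 14548 and 13020 in DAHB libraries, and 13381, 13815 and 13880 in NaCl libraries. The 3 groups overlapped, and the log2 fold change in DAHB against NaCl libraries was 0.00 with a 95% interval of -0.09 to 0.09. Under quantile normalization all 3 comparisons of Paics passed. The log2 fold changes were then 0.092 in DAHB and 0.26 in DAHB+O against NaCl libraries (limma adjusted p = 0.0228 and 9.42e-06). In DAHB+O against DAHB libraries it was 0.17 (limma adjusted p = 0.00064). Paics and Ppat lie head to head on chromosome 5: Ppat runs from 76913249 to 76951578 on the minus strand and Paics from 76951307 to 76967509 on the plus strand, and their annotated exons share 272 bases. The log2 ratio of Ppat to Paics normalized counts was -1.73 to -1.65 in DAHB+O libraries, -2.40 to -2.09 in DAHB libraries and -1.76 to -1.69 in NaCl libraries. DAHB libraries thus lay below both other groups, by a mean of 0.54 below NaCl libraries (difference -0.54, two-sided exact permutation p = 0.1, the smallest that 3 libraries against 3 allow). With the strand setting of the counting not given in the sources used here, reads from the shared bases could have been assigned to either gene.

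Beyond IMP, all 7 branch genes differed between DAHB and NaCl libraries, 4 lower and 3 higher, beside 73.9% of all genes called. Adssl1, the form of adenylosuccinate synthetase best known from muscle, had 394, 429 and 495 normalized counts in DAHB+O libraries, 837, 908 and 888 in DAHB libraries, and 1772, 1718 and 1804 in NaCl libraries. The groups were widely separate: it was 2.01-fold lower in DAHB than in NaCl libraries and a further 2-fold lower in DAHB+O than in DAHB libraries. DAHB+O libraries were 4.03-fold lower than NaCl libraries (log2 fold change -2.01, SE 0.0714, limma adjusted p = 3.39e-12), the largest difference of any member in either direction. Adss, the broadly expressed form that carries out the same reaction, had 7415, 7260 and 7320 normalized counts in DAHB+O libraries, 6791, 6808 and 6797 in DAHB libraries, and 5631, 5626 and 5698 in NaCl libraries. It was higher by 1.2-fold in DAHB and by 1.3-fold in DAHB+O than in NaCl libraries, with no overlap. Per kilobase of exon, Adss exceeded Adssl1 6.82- to 8.69-fold in DAHB+O libraries, 3.46- to 3.74-fold in DAHB libraries and 1.46- to 1.51-fold in NaCl libraries, so the ratio differed between all 3 groups by more than their spread.

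The guanine branch starts with IMP dehydrogenase, of which T cells use both forms. Impdh2, the form raised in proliferating cells, had 14847, 15541 and 15474 normalized counts in DAHB+O libraries, 13138, 14154 and 13256 in DAHB libraries, and 16196, 16414 and 16894 in NaCl libraries. Impdh1 had 4190, 4399 and 4392 in DAHB+O libraries, 5423, 5735 and 5810 in DAHB libraries, and 5086, 5096 and 5020 in NaCl libraries. In DAHB against NaCl libraries Impdh2 was 1.22-fold lower and Impdh1 1.12-fold higher, and in DAHB+O against DAHB libraries Impdh2 was 1.13-fold higher and Impdh1 1.31-fold lower. Their ratio per kilobase was 3.77 to 3.79 in DAHB+O libraries, 2.44 to 2.64 in DAHB libraries and 3.41 to 3.6 in NaCl libraries. Impdh2 was lower in DAHB+O than in NaCl libraries (log2 fold change -0.11, limma adjusted p = 0.0175), but the call was lost without DAHB+O replicate 1 (0.0759) or NaCl replicate 3 (0.079), and the sign turned under quantile normalization (0.08). Gmps, which completes GMP, had 4041, 3999 and 3898 normalized counts in DAHB+O libraries, 3571, 3793 and 3411 in DAHB libraries, and 6656, 6692 and 6775 in NaCl libraries. Both treated groups lay far below the NaCl libraries, by 1.87-fold in DAHB (log2 fold change -0.90, SE 0.0407, limma adjusted p = 3.91e-11) and by 1.69-fold in DAHB+O. DAHB+O libraries were 1.11-fold above DAHB libraries.

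The AMP deaminases, which return AMP to IMP, also split. Ampd2, the liver-type form, had 2005, 1901 and 1817 normalized counts in DAHB+O libraries, 1215, 1037 and 955 in DAHB libraries, and 2021, 1886 and 1751 in NaCl libraries. DAHB libraries stood apart, 1.77-fold below NaCl libraries (log2 fold change -0.82, SE 0.0759, limma adjusted p = 1.09e-07) and 1.79-fold below DAHB+O libraries, while DAHB+O and NaCl libraries overlapped. Ampd3 was low, with 67, 66.8 and 75.9 normalized counts in DAHB+O libraries, 83.6, 67.8 and 81.3 in DAHB libraries, and 39.3, 35.4 and 42.6 in NaCl libraries. It was 1.96-fold higher in DAHB and 1.77-fold higher in DAHB+O than in NaCl libraries, and neither call held under quantile normalization (limma adjusted p = 0.115 and 0.207). Per kilobase of exon, Ampd2 exceeded Ampd3 25.8- to 32.2-fold in DAHB+O libraries, 12.6- to 16.5-fold in DAHB libraries and 44.3- to 57.4-fold in NaCl libraries.

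All 5 genes of pyrimidine synthesis were lower in DAHB than in NaCl libraries, beside 38.4% of all genes, though Ctps2 lost the call under quantile normalization. Of the 5, 4 were higher in DAHB+O than in DAHB libraries, beside 33.1% of all genes. Cad, the multifunctional enzyme that opens the route, had 7819, 7103 and 7289 normalized counts in DAHB+O libraries, 5667, 4701 and 4888 in DAHB libraries, and 7776, 7092 and 7281 in NaCl libraries. The DAHB+O and NaCl libraries were nearly the same (log2 fold change 0.00, 95% interval -0.13 to 0.13), and DAHB libraries were 1.46-fold below both. Under quantile normalization Cad was called higher in DAHB+O than in NaCl libraries (log2 fold change 0.20, limma adjusted p = 0.0126). Dhodh, the mitochondrial enzyme that passes electrons from dihydroorotate to the respiratory chain, had 771, 802 and 749 normalized counts in DAHB+O libraries, 523, 539 and 454 in DAHB libraries, and 778, 750 and 698 in NaCl libraries. It had the same order as Cad: DAHB libraries were 1.47-fold below NaCl libraries, and DAHB+O libraries overlapped the NaCl libraries (limma adjusted p = 0.438). Umps, which makes UMP, had 2352, 2266 and 2114 normalized counts in DAHB+O libraries, 1573, 1519 and 1276 in DAHB libraries, and 2888, 2751 and 2931 in NaCl libraries. It was 1.97-fold lower in DAHB than in NaCl libraries (log2 fold change -0.98, SE 0.0668, limma adjusted p = 3.65e-09), and DAHB+O libraries lay between, 1.27-fold below NaCl libraries.

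The forms of CTP synthetase, which turn UTP into CTP, parted between DAHB+O and DAHB libraries. Ctps, known to be needed for lymphocyte proliferation in humans, had 3461, 3224 and 3132 normalized counts in DAHB+O libraries, 1835, 1654 and 1439 in DAHB libraries, and 2509, 2248 and 2336 in NaCl libraries. DAHB libraries were 1.44-fold below and DAHB+O libraries 1.38-fold above NaCl libraries, so DAHB+O libraries were 2-fold above DAHB libraries (log2 fold change 1.00, SE 0.0719, limma adjusted p = 1.53e-08). Ctps2 had 1655, 1763 and 1787 normalized counts in DAHB+O libraries, 2104, 2517 and 2515 in DAHB libraries, and 2634, 2899 and 2878 in NaCl libraries. It was 1.18-fold lower in DAHB and 1.61-fold lower in DAHB+O than in NaCl libraries, with no overlap. Under quantile normalization the log2 fold change in DAHB against NaCl libraries was -0.072 rather than -0.24 (limma adjusted p = 0.354). The ratio of Ctps to Ctps2 per kilobase of exon was 2.49 to 2.98 in DAHB+O libraries, above the 0.814 to 1.24 of DAHB libraries and the 1.1 to 1.36 of NaCl libraries, whose ranges overlapped.

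PRPP synthetases supply the activated ribose to all these routes. Prps2 had 4962, 5379 and 5362 normalized counts in DAHB+O libraries, 4098, 4239 and 4066 in DAHB libraries, and 2897, 2983 and 3122 in NaCl libraries. It was 1.38-fold higher in DAHB and 1.74-fold higher in DAHB+O than in NaCl libraries (for DAHB+O, log2 fold change 0.80, SE 0.0427, limma adjusted p = 2.2e-10). Prps1 had 3957, 3929 and 3705 normalized counts in DAHB+O libraries, 3080, 2978 and 2667 in DAHB libraries, and 3161, 3091 and 3010 in NaCl libraries. DAHB+O libraries were 1.25-fold above NaCl libraries, while DAHB libraries overlapped NaCl libraries (log2 fold change -0.09, limma adjusted p = 0.128, and 0.0245 without DAHB replicate 1 or 0.0408 with the replicate number as a block). The ratio of Prps1 to Prps2 per kilobase was 1.34 to 1.55 in DAHB+O libraries, 1.27 to 1.46 in DAHB libraries and 1.87 to 2.12 in NaCl libraries.

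Salvage genes had no common direction, with 4 of 9 higher and 3 of 9 lower in DAHB than in NaCl libraries (77.8% called, beside 73.9% of all genes). Both cytosolic deoxynucleoside kinases were lower. Tk1, the cytosolic thymidine kinase of dividing cells, had 1577, 1528 and 1549 normalized counts in DAHB+O libraries, 1529, 1420 and 1322 in DAHB libraries, and 2777, 2838 and 2831 in NaCl libraries. Both treated groups lay well below the NaCl libraries, by 1.98-fold in DAHB (log2 fold change -0.99, SE 0.0497, limma adjusted p = 1.26e-10) and 1.81-fold in DAHB+O. The treated groups overlapped each other: DAHB+O was called 1.09-fold higher (limma adjusted p = 0.038), and the call was lost by edgeR (0.0541), by DESeq2 (0.0877), under quantile normalization (0.114), without DAHB+O replicate 1 (0.104), 2 (0.0597) or 3 (0.0775), without DAHB replicate 2 (0.0778) or 3 (0.158), and without NaCl replicate 2 (0.0519) or 3 (0.0535). Dck, cytosolic deoxycytidine kinase, had 2475, 2488 and 2447 normalized counts in DAHB+O libraries, 2349, 2424 and 2269 in DAHB libraries, and 3782, 3951 and 4198 in NaCl libraries. It too was low in both treated groups, by 1.69-fold in DAHB and 1.61-fold in DAHB+O, with a log2 fold change of 0.07 between those groups (95% interval -0.02 to 0.17, limma adjusted p = 0.156).

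The mitochondrial kinases were not lower by this test. Dguok, which phosphorylates deoxyguanosine in mitochondria, had 850, 933 and 927 normalized counts in DAHB+O libraries, 709, 784 and 776 in DAHB libraries, and 505, 551 and 544 in NaCl libraries. It was 1.42-fold higher in DAHB and 1.69-fold higher in DAHB+O than in NaCl libraries, with no overlap of the groups (for DAHB+O, log2 fold change 0.76, SE 0.0625, limma adjusted p = 2.83e-08). Tk2, mitochondrial thymidine kinase, had 551, 547 and 547 normalized counts in DAHB+O libraries, 513, 535 and 520 in DAHB libraries, and 512, 604 and 580 in NaCl libraries. None of its 3 comparisons passed. For DAHB against NaCl libraries the log2 fold change was -0.11 with a 95% interval of -0.25 to 0.03, and it was -0.18 and passed without NaCl replicate 1 (limma adjusted p = 0.0229). The ratio of Dck to Dguok per kilobase was 3.22 to 3.55 in DAHB+O libraries, 3.57 to 4.04 in DAHB libraries and 8.75 to 9.42 in NaCl libraries. That of Tk1 to Tk2 was 1.92 to 1.97, 1.75 to 2.05 and 3.23 to 3.73 in the same groups.

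**Figure D4:**
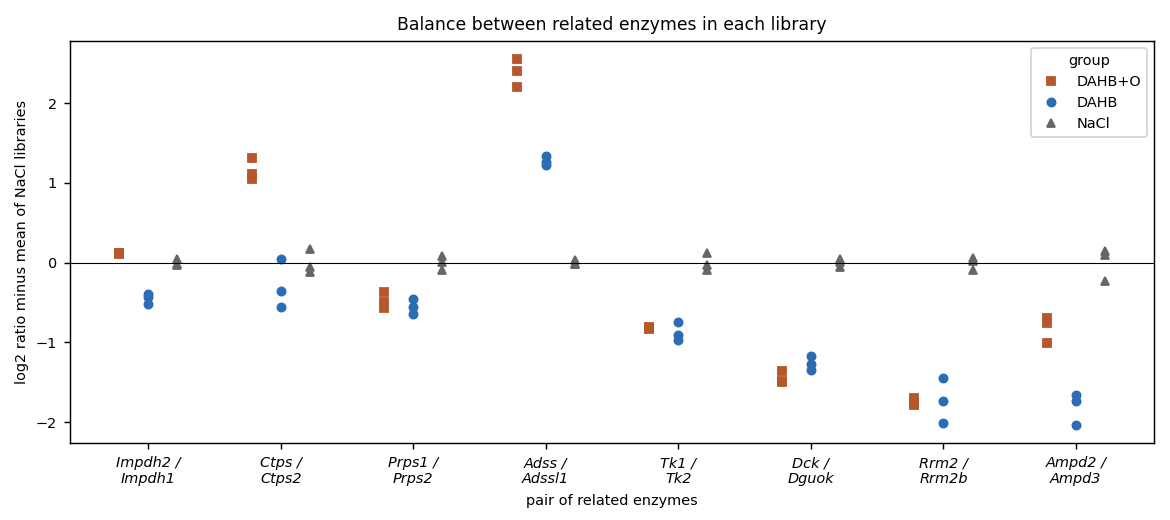
For 8 pairs of related enzymes (x axis), each symbol gives 1 library's log2 ratio of the first to the second gene minus the mean of the NaCl libraries (y axis). Adss over Adssl1 lies highest in DAHB+O libraries, Ctps over Ctps2 in DAHB+O libraries lies above the overlapping DAHB and NaCl libraries, and Rrm2 over Rrm2b lies well below NaCl in both treated groups.

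The base salvage enzymes moved little. Hprt, which recovers hypoxanthine and guanine, had 6934, 6678 and 7044 normalized counts in DAHB+O libraries, 8638, 8686 and 8314 in DAHB libraries, and 8578, 8788 and 8965 in NaCl libraries. DAHB+O libraries were the lowest, 1.24-fold below DAHB and 1.27-fold below NaCl libraries, while DAHB and NaCl libraries overlapped (limma adjusted p = 0.349). Aprt, which recovers adenine, had 3452, 3716 and 3696 normalized counts in DAHB+O libraries, 4262, 4469 and 3931 in DAHB libraries, and 3463, 3547 and 3707 in NaCl libraries. DAHB libraries were the highest, 1.18-fold above NaCl libraries. Uck2, a uridine and cytidine kinase, had 9389, 9273 and 9231 normalized counts in DAHB+O libraries, 9849, 10421 and 10407 in DAHB libraries, and 8920, 9090 and 9074 in NaCl libraries. It was 1.13-fold higher in DAHB than in NaCl libraries and 1.1-fold lower in DAHB+O than in DAHB libraries, and the second call was lost under quantile normalization (log2 fold change -0.14, and -0.012 there, limma adjusted p = 0.76).

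Ada, adenosine deaminase, had 608, 591 and 623 normalized counts in DAHB+O libraries, 464, 433 and 419 in DAHB libraries, and 365, 325 and 352 in NaCl libraries. The groups did not overlap, and the level was 1.26-fold higher in DAHB and 1.75-fold higher in DAHB+O than in NaCl libraries (for DAHB+O, log2 fold change 0.81, SE 0.0681, limma adjusted p = 3.94e-08). Pnp, which acts next on the inosine that Ada makes, had 269, 290 and 307 normalized counts in DAHB+O libraries, 383, 395 and 365 in DAHB libraries, and 441, 462 and 444 in NaCl libraries. It moved the opposite way, 1.18-fold lower in DAHB and 1.55-fold lower in DAHB+O than in NaCl libraries. Loss of either enzyme is known to cause immunodeficiency in humans. Of the annotated exon bases of Pnp, 18% are shared on the same strand with Gm49342, so its values are uncertain.

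Neither nucleoside diphosphate kinase, which charge diphosphates to triphosphates, passed in any comparison. Nme1 had 899, 989 and 1015 normalized counts in DAHB+O libraries, 1054, 1009 and 870 in DAHB libraries, and 1072, 1022 and 1119 in NaCl libraries. All DAHB+O libraries lay below the NaCl libraries, with a log2 fold change of -0.15 (limma adjusted p = 0.0718, and 0.0423 or 0.0252 without DAHB replicate 1 or 3). DAHB against NaCl libraries gave -0.14 (limma adjusted p = 0.0955, and 0.0207 without DAHB replicate 1). Nme2 had 16, 9.22 and 17.9 normalized counts in DAHB+O libraries, 8.96, 12.6 and 7.3 in DAHB libraries, and 8.27, 21.6 and 22.7 in NaCl libraries. These few counts gave a 95% interval of -1.57 to 0.14 for the log2 fold change in DAHB against NaCl libraries, and without NaCl replicate 1 it was -1.15 (limma adjusted p = 0.012). Under quantile normalization that log2 fold change was -1.74 (limma adjusted p = 0.0022). In DAHB+O against DAHB libraries it was 1.02 there (limma adjusted p = 0.049). Of the annotated exon bases of Nme2, 48.9% are shared on the same strand with Gm20390, a gene not analysed here, as are 12.5% of those of Nme1, so the level of Nme2 in particular is uncertain.

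The spread among libraries differed between groups. The median coefficient of variation over the 38 members was 2.73% in DAHB+O libraries, 7.98% in DAHB libraries and 2.93% in NaCl libraries. Over all 9643 genes averaging 200 normalized counts or more it was 3.46%, 5.1% and 3.43% in the same groups. DAHB replicate 3 was the lowest of its group for 26 of the 38 members and the highest for 3. How often it was the lowest over all genes was not counted, so this is not shown to be particular to the members.

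Of the suppliers of the folate-bound carbon units used for purines and thymidylate, 7 of 8 were lower in DAHB than in NaCl libraries, beside 38.4% of all genes, and 7 of 8 were higher in DAHB+O than in DAHB libraries, beside 33.1%. Shmt2, the mitochondrial serine hydroxymethyltransferase, had 15675, 14793 and 14062 normalized counts in DAHB+O libraries, 6282, 5699 and 5065 in DAHB libraries, and 12715, 12133 and 12100 in NaCl libraries. It was 2.18-fold lower in DAHB than in NaCl libraries and 2.62-fold higher in DAHB+O than in DAHB libraries. Mthfd2, its mitochondrial partner, had 13762, 12808 and 12471 normalized counts in DAHB+O libraries, 4851, 4579 and 4190 in DAHB libraries, and 6566, 6171 and 6144 in NaCl libraries. It was 2.07-fold higher in DAHB+O than in NaCl libraries (log2 fold change 1.05, limma adjusted p = 1.14e-10). Fpgs, which adds glutamates to folates, was the gene that did not pass in DAHB against NaCl libraries (log2 fold change -0.08, limma adjusted p = 0.367). Mthfd1l, which releases formate in mitochondria, was the gene that was lower in DAHB+O than in DAHB libraries, by 1.6-fold (log2 fold change -0.67), and it was 1.68-fold lower in DAHB and 2.68-fold lower in DAHB+O than in NaCl libraries.

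Of 9 genes for ribose supply and PRPP synthetase partners, 5 were lower and 2 higher in DAHB than in NaCl libraries (77.8% called, beside 73.9% of all genes). Pgd, of the oxidative pentose phosphate route, was 1.71-fold lower in DAHB and 2.35-fold lower in DAHB+O than in NaCl libraries, and Tkt, transketolase, was 1.35-fold lower in DAHB and 2.14-fold lower in DAHB+O. Taldo1, transaldolase, went the other way, 1.56-fold higher in DAHB and 1.55-fold higher in DAHB+O than in NaCl libraries. Of 15 further nucleotide kinases tested, 9 were higher and 4 lower in DAHB than in NaCl libraries, and 12 were higher and 3 lower in DAHB+O than in NaCl libraries. The shares higher were 60%, beside 35.5% of all genes, and 80%, beside 36.5%. In DAHB+O against DAHB libraries 4 of these kinases were higher and 3 lower (46.7% called, beside 62.6% of all genes). Ak4, an adenylate kinase family member of the mitochondrial matrix, was 1.27-fold lower in DAHB and 2.94-fold lower in DAHB+O than in NaCl libraries. Of 25 genes for nucleotide breakdown and clean-up, 10 were higher and 6 lower in DAHB than in NaCl libraries, and 6 were higher and 8 lower in DAHB+O than in DAHB libraries. The shares called, 64% and 56%, were below those of all genes, 73.9% and 62.6%. In DAHB+O against NaCl libraries 13 were higher and 7 lower, and 80% were called, beside 74.2% of all genes. There 52% were higher, beside 36.5%, and 28% lower, beside 37.7%.

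In that breakdown list, Gmpr, which reduces GMP to IMP, had 124, 137 and 118 normalized counts in DAHB+O libraries, 116, 107 and 103 in DAHB libraries, and 18.6, 8.85 and 14.5 in NaCl libraries. Both treated groups stood well above the NaCl libraries, by 7.63-fold in DAHB and 8.81-fold in DAHB+O, the largest changes of the list. Upp1, uridine phosphorylase, differed most between DAHB+O and DAHB libraries. It had 137, 171 and 207 normalized counts in DAHB+O libraries, 1076, 1315 and 1289 in DAHB libraries, and 356, 461 and 509 in NaCl libraries. It was 2.79-fold higher in DAHB than in NaCl libraries and 7.19-fold lower in DAHB+O than in DAHB libraries. Entpd1, the surface enzyme CD39 that degrades extracellular ATP, was 3.12-fold higher in DAHB and 1.62-fold higher in DAHB+O than in NaCl libraries. Of 7 carriers, 3 were lower and 1 higher in DAHB than in NaCl libraries, and 5 were higher and 2 lower in DAHB+O than in NaCl libraries. The share called was 57.1%, beside 73.9% of all genes, in the first comparison and 100%, beside 74.2%, in the second. Slc25a33, a mitochondrial pyrimidine nucleotide carrier, had 692, 562 and 594 normalized counts in DAHB+O libraries, 301, 243 and 281 in DAHB libraries, and 207, 179 and 196 in NaCl libraries, and was 3.16-fold higher in DAHB+O than in NaCl libraries. Slc29a1, the main equilibrative nucleoside transporter, was 1.22-fold lower in DAHB and 1.75-fold higher in DAHB+O than in NaCl libraries.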

How the data were processed

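The deposited table holds normalized counts per gene (a signal that is never negative) for all 9 libraries in 1 table. Per the submitters' processing notes, Trim Galore 0.4.5, STAR 2.4, Picard, HTSeq 0.9.1, DESeq2 and the mm10 build were used, with no role or order given. For the annotation, strand setting and any filter, nothing is stated there. Values are whole multiples of 1 step per library (100% within 1e-06 reads), from which 28146402 to 39207045 reads per library were recovered. The step of DAHB replicate 1 lies so near to 1 that a separate check could not tell it from rounding. The recovered reads served the count tests, which are alternatives.

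The main test was limma 3.58.1 (R 4.3.3, eBayes with trend, two-sided) on log2(normalized count + 1) for 14169 genes with a mean of at least 10, with 1 mean per group and Benjamini-Hochberg adjustment over all genes. Fold changes are on that scale. The limma script was tested on simulated data. Alternatives were other pseudocounts and filters, TMM and quantile scaling, a replicate block, the 6 libraries compared alone, each library left out, edgeR 4.0.16 and DESeq2 1.42.0. A blank cell (Slc7a5, NaCl replicate 2) and 21 rows with a bare number for a symbol touch no member. Per-kilobase values use the union of GENCODE vM21 exons, and close paralogues or pseudogenes may share reads. That union can be longer than the transcripts present. The size of a ratio between genes thus depends on the annotation, whereas its differences between groups do not. Genes on the opposite strand share 8.31% of the exon bases of Ampd2 and 8.04% of those of Rrm2b.

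The 38 members and all lists were chosen with earlier results of these data known. Named genes were every member, with up to 4 of each other list by smallest p. Mcm5, Upp1 and the other list genes named were taken from these, and markers from fixed lists.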

Additional observations from a re-analysis of the deposited data

How the results depend on the processing

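Over the 3 comparisons of the 38 members, 2081 results under an alternative kept direction and side of the threshold, 32 gained a call, 29 lost one and 21 changed sign. Only 1 count of member calls moved by over 1.5 times: 18 rather than 11 were higher in DAHB+O than in NaCl libraries under quantile normalization, which also turned the sign of Prps1 (0.069) and Hprt (0.074) in DAHB against NaCl, Tk2 (-0.016) in DAHB+O against DAHB, and Impdh2 (0.076) and Dut (0.10) in DAHB+O against NaCl. The values are log2 fold changes, and the cause was not tested. Calls that quantile normalization ended are given beside the genes, and it ended that of Impdh1 in DAHB+O against NaCl too (adjusted p = 0.386). Beyond calls given with the genes, it called Ppat, Aprt, Uck2 and Samhd1 in DAHB+O against NaCl (limma adjusted p = 0.000998, 0.00177, 5.53e-06 and 0.00199). Gart gained a call in DAHB against NaCl (limma adjusted p = 0.0292). Leaving out 1 library turned the sign of 8 changes, none of them called. Over the libraries left out, Gart ranged over -0.040 to 0.16 and Paics over -0.043 to 0.037 in DAHB against NaCl. Nme1 ranged over -0.093 to 0.045 in DAHB+O against DAHB. In DAHB+O against NaCl, the ranges were -0.034 to 0.069 for Ampd2, -0.036 to 0.042 for Cad, -0.64 to 0.072 for Nme2, -0.0025 to 0.054 for Aprt and -0.11 to 0.0098 for Tk2. Leaving out libraries gave 20 to 23 members lower in DAHB against NaCl, 22 to 24 higher in DAHB+O against DAHB, and 13 to 16 lower in DAHB+O against NaCl. Low counts limit what can be said of Nme2 and Ampd3, the members with the fewest. How far the exon bases shared with Gm20390 set the Nme2 counts was not tested. To look for pairing, each gene's group mean was subtracted from its log2 values, and the remainders were correlated between libraries of different groups. These remainders of same-numbered libraries correlated at 0.0273 to 0.16 (Pearson r), with 2 of 9 pairs over 0.1. These values are small, but each library correlated best with its own number in 18 of 18 cases. The labels do not say whether the numbers mark a pairing, and these values do not settle it. With the replicate block, 10 members were higher and 22 lower in DAHB against NaCl, 24 and 8 in DAHB+O against DAHB, and 12 and 14 in DAHB+O against NaCl. Over all genes, 10683, 9145 and 10718 passed with the replicate block, against 10472, 8866 and 10516 without it.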
